A study of Danio rerio with 6 samples.

Results

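The genes of the ubiquitin and proteasome system were followed here in blood chromatin of adult zebrafish. They were taken from the deposited table of 9546 regions listed as more open in adults derived from cortisol-treated embryos. A row of that table was kept when the name of its nearest gene begins with psm, ube2, ube3, ube4, usp, uba, ubb, ubc, fbx or cul. This gave 182 rows of 134 genes, out of 9546 rows of 6295 genes. By name, 56 rows belonged to proteasome genes, 39 to conjugating enzymes, 42 to parts of ubiquitin ligases and 26 to deubiquitinases. Another 6 rows belonged to ubiquitin genes, 4 to activating enzymes and 9 to other genes named uba. The regions of the table had themselves been chosen by their signal in pooled cortisol against pooled DMSO reads of these same libraries, so values of that contrast are given below as a description, with no test.

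Open chromatin was mapped by ATAC-seq, in which a transposase cuts accessible DNA and open sites appear as peaks of aligned reads. All fish were of the AB strain. The cortisol libraries came from adults that had 1 µM cortisol in the larval medium for the first 5 days of development, and the DMSO libraries from siblings given the vehicle, DMSO, over the same 5 days. Each group had 3 libraries, and in both groups replicate 3 was taken at 10 months of age, replicate 2 at 11 months and replicate 1 at 12 months. The study's methods describe each library as blood pooled from 6 fish of mixed sex, while the series description mentions single adults, 6 in number. Which of these holds could not be decided.

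Ubiquitin is a small protein that is attached to other proteins by a relay of activating, conjugating and ligase enzymes, and removed again by deubiquitinases. Chains of ubiquitin send many proteins to the proteasome, a barrel of alpha and beta rings whose inner beta subunits cut proteins and whose regulatory cap, driven by a ring of ATPases, unfolds them. Fish red cells keep their nucleus, and maturing red cells are known for removing much of their protein content through this system.

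The 6 lists held between 26905 and 138146 peaks, and the longest, DMSO at 12 months, had more than 2 times as many as any other. In cortisol and DMSO libraries the counts were 26905 and 29401 at 10 months, 56695 and 63072 at 11 months, and 49583 and 138146 at 12 months, so list length differed between ages as well as between libraries. The depth behind the lists is unknown here, since read totals were not used. Peaks of all 6 libraries were merged into 153054 regions, of which 13835 had a peak in every library. The level of a row in a library is given as a percentile. It is the place of the highest-scoring overlapping peak among those 13835 regions in the same library, with 0 where there was no peak. In the 12-month libraries the peak names start with V0 for cortisol and V1 for DMSO, whereas the younger libraries have the 1 with cortisol and the 0 with DMSO. Peak names of the pooled lists and of the rows of the table begin with the word Flipped, and the sources used here do not say what was flipped. The labels were used as given, results are also reported without the 12-month pair, and whether any labels were exchanged was not tested. Of the red cell markers, 9 of 13 had a row, and the median of their mean percentiles was 77.6. At promoters the means ran from 41.7 at klf1 to 97.0 at the band 3 gene slc4a1a. The globin gene hbaa1 had promoter means of 91.6 and 94.3. Of the markers of other cells, 2 of 8 myeloid, 2 of 11 lymphoid and 2 of 5 thrombocyte genes had a row. The medians of their few rows were 86.1, 73.7 and 83.5. No myeloid or lymphoid row was at a promoter, so these medians are not like the promoter values of the red cell markers. A gene with no row can still have a peak in each library, because the table lists only regions that it places higher in cortisol.

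A larger share of the family than of all genes had a row, although the gene sets are not alike. Of 256 protein-coding genes with these names in the current RefSeq annotation, 141 had a row (55.1%), compared with 6196 of 27039 protein-coding genes in all (22.9%). The larger set takes in every protein-coding entry, however named, of an annotation newer than the genome of the table. Some of the 141 appear in the table under older names, which is why their number is above 134. Among the 4 main classes the share was highest for conjugating enzymes, at 31 of 39, followed by genes named psm, at 39 of 59. It was lower for ligase parts (38 of 86) and deubiquitinases (18 of 50). Within the proteasome, 9 of 10 alpha genes, 9 of 14 beta genes, 6 of 8 genes named psmc and 13 of 16 genes named psmd had a row. The beta genes without one were psmb8a, psmb9a, psmb10, psmb11a and psmb13a, and in mammals the subunits of the names psmb8, psmb9 and psmb10 form the immunoproteasome, which interferon induces. The activators psme1, psme2 and psme3, the inhibitor psmf1 and the assembly chaperones psmg1, psmg2 and psmg4 had none either. Among the activators only psme4b, whose mammalian counterpart opens proteasomes in the nucleus, had a row. These shares describe the choice of rows, and no test was made on them.

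By the authors' annotation to the GRCz10 genome, 103 of the 182 rows lay at a promoter (56.6%), 48 were intergenic, 20 in an intron, 5 in an exon, 4 in a 5′ UTR and 2 at a transcription end. Promoters made up 47.1% of all rows. Within 1000 bp of a transcription start lay 127 of the family's rows (69.8%) and 53.7% of all rows. The promoter share was 66.7% for ligase parts, 53.8% for deubiquitinases, 51.3% for conjugating enzymes and 28 of 56 for proteasome genes. Rows were short, with a median width of 383 bp against 373 bp in the whole table, and 37 lay beyond 10 kb from the start of the gene they were assigned to. Assignment is by the nearest start only, and whether such distant regions act on that gene was not tested. Most genes had a single row (96), and 38 had more. At psma6b, ube2z, fbxw4 and usp25, a pair of rows fell on the same peaks in all 6 libraries, so these 8 rows are not separate measurements. A pair of rows at psme4b, ube3a and usp33 lay in the same merged region, so their values are not fully separate either.

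The family's regions were of middling strength. The median of their mean percentile was 62.2 over all members and 62.6 over the whole table, and 18 rows (9.89%) had a mean above the 90th percentile, compared with 12.7% of the table. A peak was present in all 6 libraries at 176 rows. The other 6 rows lacked a peak only in DMSO libraries, 3 of them at 12 months and 5 at 11 months. They were at ube2l3a, fbxo30b, fbxo5 and usp30, with 2 rows at usp1.

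Among promoter rows, the proteasome genes had the lowest median and the deubiquitinases the highest. The median of the mean percentile was 56.0 for 28 proteasome promoters, 60.2 for 28 ligase promoters, 66.8 for 20 promoters of conjugating enzymes and 72.5 for 14 of deubiquitinases, and 64.4 for all 4493 promoter rows of the table. In the cortisol libraries at 10, 11 and 12 months the median proteasome promoter stood at 65.8, 60.3 and 48.6, and in the DMSO libraries at 62.1, 63.7 and 35.4. For all promoter rows of the table the same medians were 69.6, 67.9 and 63.2 in cortisol libraries and 68.2, 63.3 and 58.9 in DMSO libraries. The proteasome median was below that of all promoter rows in every library except DMSO at 11 months (63.7 against 63.3). It was furthest below in the 12-month libraries. The DMSO library at 12 months was the lowest of the 6 at 21 of the 28 proteasome promoters (75.0%). It was also the lowest at 50.2% of all promoter rows.

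**Figure D1:**
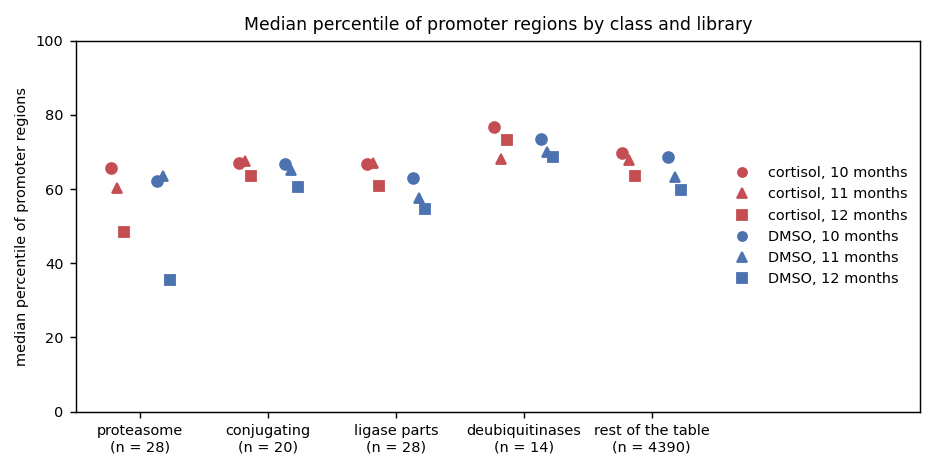
Median percentile of promoter regions (vertical axis, 0 to 100) for 4 classes of ubiquitin and proteasome genes and for the rest of the table, with 1 point for each library (cortisol in red, DMSO in blue, shapes for age). The proteasome medians spread from 35.4 in DMSO to 65.8 in cortisol, with both 12-month libraries at the bottom, while the medians of the other classes lie closer together.

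The alpha ring of the proteasome forms the gate of the barrel. Its promoters ranged from psma4, with percentiles of 77.8, 72.3 and 79.8 in cortisol libraries at 10, 11 and 12 months and 78.8, 78.4 and 71.5 in DMSO libraries, down to psma1, with 36.0, 33.0 and 23.6 in cortisol and 22.6, 15.9 and 27.6 in DMSO. The groups overlapped at both. Between them lay psma2, psma3, psma6a and psma8, with mean percentiles of 63.1, 58.4, 32.6 and 42.4. The promoter of psma6a spanned a wide range, with 55.0, 39.4 and 26.4 in cortisol libraries and 46.4, 14.2 and 14.4 in DMSO libraries. The region of psma5 was in an intron 278 bp after the start, with a mean percentile of 80.6, and that of psma6l was intergenic with a mean of 24.6. At psma6b an exon region 108 bp from the start stood at 45.5, 29.7 and 28.0 in cortisol libraries and 20.7, 17.5 and 11.3 in DMSO libraries, so that every cortisol value was above every DMSO value.

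The beta ring holds the cutting sites, which in other animals belong to the products of psmb5, psmb6 and psmb7. These genes differed widely in the openness of their promoters. The promoter of psmb5 was among the strongest of the proteasome, at 80.7, 82.9 and 81.3 in cortisol libraries and 85.3, 80.2 and 72.3 in DMSO libraries, and that of psmb7 was intermediate, with a mean of 67.5. The promoter of psmb6 (chromosome 23, 44729422 to 44729826, -63 bp from the start) stood at 50.03, 43.4 and 45.9 in cortisol libraries and at 29.1, 20.7 and 12.9 in DMSO libraries. Its means were 46.5 ± 3.33 in cortisol and 20.9 ± 8.12 in DMSO (SD, n = 3 each), which is the widest gap of any proteasome row, at 25.5 points, with no overlap. The structural subunits psmb1, psmb2, psmb3 and psmb4 had promoter means of 47.9, 45.1, 47.8 and 41.4. The promoter of psmb12, a fish gene related to the cutting subunits, stood at 69.3, 67.6 and 66.5 in cortisol libraries, just above 50.2, 65.2 and 58.2 in DMSO libraries. Its relative psmb11b had 2 intergenic regions, 10604 and 9727 bp from its start, with means of 76.2 and 70.8.

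The ATPases of the regulatory cap unfold the protein to be cut. All 6 had a region close to the start, with mean percentiles of 73.7 for psmc3, 69.4 for psmc6, 58.7 for psmc1a in its 5′ UTR, 56.0 for psmc2, 55.9 for psmc4 and 49.4 for psmc5. The region of psmc5 spread most, at 58.1, 45.2 and 48.9 in cortisol libraries and 67.6, 64.0 and 12.9 in DMSO libraries. The lone low value was in DMSO at 12 months. At psmc4, 3 further intergenic regions had means from 24.6 to 62.4.

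The other subunits of the cap include ubiquitin receptors, the deubiquitinase psmd14 and scaffold proteins. The strongest promoter of the whole proteasome was that of the ubiquitin receptor psmd4a, at 94.1, 89.9 and 88.2 in cortisol libraries and 93.5, 89.0 and 87.6 in DMSO libraries, whereas its duplicate psmd4b had a mean of 42.2. The promoter of psmd14, which strips ubiquitin from proteins as they enter, was among the weakest, at 46.3, 36.4 and 28.0 in cortisol libraries and 35.8, 15.9 and 5.45 in DMSO libraries. The scaffold gene psmd1 and the lid gene psmd13 shared a value under 7 in DMSO at 12 months, 6.77 for psmd1 and 5.45 for psmd13, while their other values lay between 35.1 and 65.2. Among the remaining cap genes, mean percentiles near the start were 57.4 for psmd7, 66.0 for psmd3, 57.5 for psmd11a, 79.5 for psmd11b and 56.3 for psmd12. The chaperones psmd5 and psmd10, which help to assemble the cap in other species, had 53.8 and 73.0. The lid gene psmd8 had only intergenic regions, at -2326 bp and -5209 bp, both strong with means of 93.8 and 88.5. The activator psme4b had a promoter mean of 72.1, and the assembly chaperone psmg3 a mean of 59.3 in an intron.

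**Figure D2:**
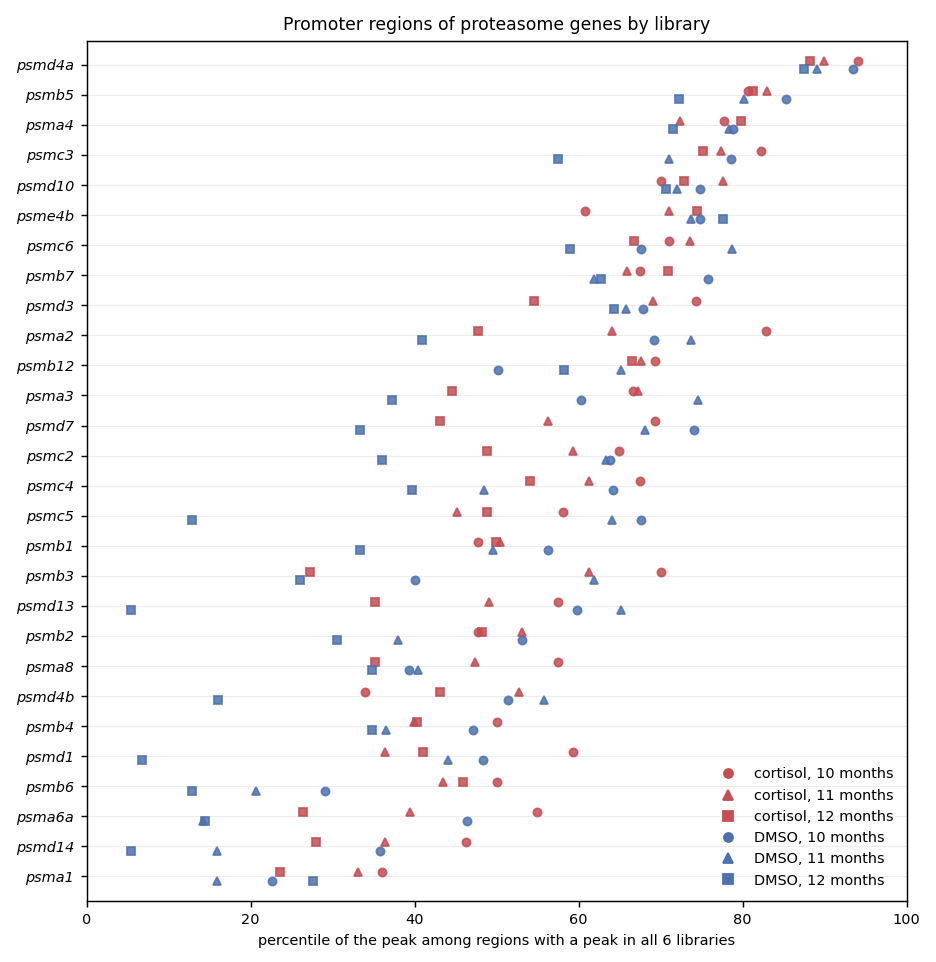
Percentile of the peak in each library (horizontal axis) for the 28 promoter regions of proteasome genes, ordered by mean, with cortisol in red above DMSO in blue and a shape for each age. Squares of the 12-month libraries lie to the left at many genes, the DMSO square most of all (5.45 at psmd14 and psmd13), and psmb6 has the widest gap between the means of the red and the blue points (25.5 points).

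The genes ubb and ubc encode ubiquitin as repeated units, and both had a promoter row. The promoter of ubc stood at 76.7, 74.9 and 63.2 in cortisol libraries and 63.0, 74.2 and 58.9 in DMSO libraries, and that of ubb spread from 36.7 to 72.7 within the cortisol libraries alone. The groups overlapped at each of the 4 rows of these genes. The activating enzyme of ubiquitin, uba1, had a promoter mean of 61.1 and a stronger intron region at 91.5. The promoter of uba2, which activates the related modifier SUMO, was at 90.1, and that of uba3, which activates NEDD8, at 42.4. The 9 other genes named uba are not activating enzymes. Their row means ran from 46.3 at ubap2b to 95.8 at ubald2.

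The conjugating enzymes included the strongest promoter of the family. The promoter of ube2s stood at 98.7, 98.4 and 97.8 in cortisol libraries and 98.7, 97.9 and 97.2 in DMSO libraries, and that of ube2c at 96.2, 92.4 and 96.3 in cortisol and 95.0, 95.2 and 94.4 in DMSO. In other animals both enzymes work with the anaphase-promoting complex, the ligase that ends mitosis. Next to them, ube2d2, of a family used by many ligases, had a mean of 97.7 and ube2g1a, in an intron close to its start, a mean of 92.1. At the low end were ube2d1a at 24.6 and an intergenic region of ube2l3a at 12.4. Taking the strongest row of each gene, ube2l3b had the largest difference, of 14.3 points. It stood at 35.0, 39.9 and 36.7 in cortisol libraries and 31.6, 27.2 and 9.73 in DMSO libraries. Next came ube2e1 with 13.4 points and ube2d1a with 12.0 points. Among weaker rows, an intergenic region of ube2g2 had 15.1 points and an intron region of ube2r2 had 12.8 points. At ube2e1 the values were 44.1, 52.0 and 38.8 in cortisol libraries and 62.7, 4.48 and 27.6 in DMSO libraries, and at ube2d1a they were 26.9, 27.6 and 37.4 in cortisol and 28.1, 27.2 and 0.622 in DMSO. The ube2e1 difference was -0.15 points without the DMSO library at 11 months, and that of ube2d1a 2.94 points without the DMSO library at 12 months. Only ube2l3b had groups that did not overlap, and leaving out the 12-month pair, the nearest values were 35.0 in cortisol and 31.6 in DMSO. The smallest differences were below zero, at ube2z (-3.15 points) and ube2ka (-2.59 points), the last of which was above zero when either 11-month library was left out. Among the conjugating genes, ube2ia and ube2f serve SUMO and NEDD8, with means of 30.6 and 40.1.

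Ligase parts were F-box proteins, which pick the substrate, cullins, which form the scaffold, and the ligases named ube3 and ube4. The highest means were 96.5 for fbxw11b, which recognises phosphorylated substrates such as beta-catenin in mammals, 96.2 for fbxl8, 91.7 for fbxo25 and 90.6 for fbxo8. The lowest by gene were fbxl4 at 29.7 and a distant intergenic region of fbxo30b at 20.4. Cullins had strong promoters, with means of 83.6 for cul1b, 88.2 for cul3a and 88.4 for cul4b, but 34.0 for cul1a. Among the other ligases, ube3c had a promoter mean of 82.7, ube3a of 35.5 and ube4b of 38.0. All cortisol values were above all DMSO values at 7 of the 42 rows, beside 9.54 percent of all rows of the table. The promoter of fbxl15 stood at 68.3, 63.8 and 56.6 in cortisol libraries and 50.8, 48.5 and 43.2 in DMSO libraries, and that of cul1a at 38.7, 42.9 and 41.8 in cortisol and 35.0, 22.4 and 23.0 in DMSO. At fbxo18, whose name is that of an F-box protein but whose mammalian counterpart is also a DNA helicase, the values were 91.6, 92.6 and 89.5 in cortisol libraries and 87.6, 89.2 and 82.9 in DMSO libraries. The remaining rows without overlap were an intergenic region of fbxo30a (19.7 points apart), an intron region of fbxl5 (20.0), the promoter of fbxo7 (12.4) and an intergenic region of fbxo5 (14.0), of which the last 3 belong to genes with a stronger second row. Taking the strongest row of each gene, which leaves out the intron region of fbxl5, the largest differences were fbxo30b with 25.8 points, fbxo30a, and fbxo44 with 18.1 points. The fbxo30b region stood at 8.42, 29.2 and 62.5 in cortisol libraries and at 22.6, 0 and 0 in DMSO libraries, so at 10 months its cortisol value was the lower. Without the cortisol library at 12 months its difference was 11.3 points, that of fbxo30a was 8.34 points without the DMSO library at 12 months, and that of fbxo44 was 9.78 points without the DMSO library at 11 months. Values went the other way at an intergenic region of fbxo7 (-8.78 points) and the promoter of fbxo9 (-4.08 points, but above zero without the cortisol library at 12 months).

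Deubiquitinases of the usp type had the highest median of the 4 main classes. The highest means by gene were 93.7 for usp33, 90.8 for usp49, 88.6 for usp36, a nucleolar enzyme in mammals, and 86.3 for usp25. The lowest were usp37 at 43.3 and usp30, a mitochondrial enzyme in mammals, at 28.0. The promoter of usp30 stood at 37.8, 24.5 and 43.2 in cortisol libraries and at 46.4, 0 and 16.0 in DMSO libraries, so its difference of 14.4 points came with overlapping groups and was 3.96 points without the DMSO library at 11 months. Taking the strongest row of each gene, further differences were 6.82 points at uspl1, which removes SUMO and not ubiquitin, and 5.31 points at usp9. Weaker rows with overlapping groups had 9.85 points in an intron of usp33, 9.37 points at a transcription end of usp16 and 8.99 points at its promoter. The intron row of usp33 lay in the same merged region as the promoter row of that gene. Values were lower in cortisol by -10.0 points at an intergenic region of usp13 and by -4.61 points at usp44. Without a single library, cortisol at 11 months for usp44 and cortisol at 10 months or DMSO at 12 months for usp13, these differences were above zero. The 3 of 26 rows without overlap, beside the same 9.54 percent, were all intergenic, 2 of them at usp1 and 1 at usp16. Their differences were 12.3 and 20.1 points at usp1 and 23.4 points at usp16. Each of these genes also had a stronger row at which the groups overlapped. The gene usp6nl was kept by its name although it encodes a regulator of a small GTPase.

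Since every row entered through the same contrast, the difference between cortisol and DMSO is best read beside that of the whole table. The mean percentile was higher in cortisol at 138 of the 182 rows (75.8%), beside 79 percent of all rows, and among promoters at 83 of 103, beside 80.4 percent. The median difference was 3.14 points for the family and 3.24 points for the table. All 3 cortisol values were above all 3 DMSO values at 17 rows (9.34%), beside 9.54 percent of all rows, and the reverse was seen at 0 rows, beside 0.775 percent. At promoters the counts were 7 of 103, beside 7.79 percent, and 0 of 103, beside 0.712 percent. By class, the rows without overlap were 6 of 56 for the proteasome, 7 of 42 for ligase parts, 3 of 26 for deubiquitinases and 1 of 39 for conjugating enzymes. Those of the proteasome were the promoters of psmb6 and psmb12, the exon region of psma6b, and intergenic regions of psmb11b, psmb3 and psmd8.

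The difference was not of the same size at each age. Between the cortisol and the DMSO library of the same age, the median over the 182 rows was 0.448 points at 10 months, 1.88 points at 11 months and 4.97 points at 12 months, with 100, 114 and 138 rows higher in cortisol. Medians of each library are another measure than these medians of row differences. For the family they were 67.7 in cortisol and 65.9 in DMSO at 10 months, 65.5 and 64.4 at 11 months, and 61.0 and 56.7 at 12 months. Over the whole table the median percentiles in cortisol and DMSO were 66.7 and 65.7 at 10 months. They were 65.9 and 61.2 at 11 months, and 62.5 and 58.9 at 12 months. The same-age differences and the values that follow were taken over the family's rows only. Without the DMSO library at 12 months the median difference was 0.344 points and the share of rows higher in cortisol was 53.8%. Without the whole 12-month pair it was 1.78 points and 67.0%. Differences at single rows of the family rested heavily on single libraries, and other rows were not examined in this way. Leaving out 1 library moved the difference by over 1.5 times at 172 of the 182 rows and changed its sign at 90. Of the 17 rows without overlap, it moved by that much at 8. Its sign could not change at these rows, because every cortisol value there was above every DMSO value. Ranked instead among every peak of the same library, common or not, a measure that moves with list length, the median difference was -1.22 points and 26.9% of rows were higher in cortisol.

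**Figure D3:**
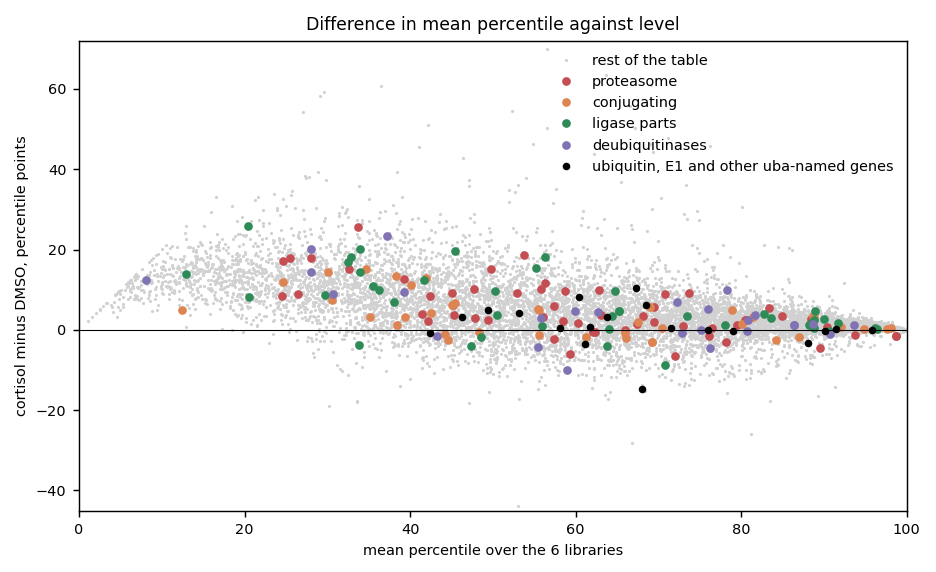
Cortisol minus DMSO difference in mean percentile (vertical axis, points) against the mean percentile over the 6 libraries (horizontal axis) for each row, with the rest of the table in grey and the classes of ubiquitin and proteasome genes in colour. The coloured points reach 25.8 at fbxo30b and lie within the grey cloud.

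Age was not used in choosing the rows and was fitted, although age, replicate number and cohort cannot be told apart here. The fit below took the 6 libraries as independent, so its SE and p values do not measure spread between cohorts of the same age. The choice was for cortisol above DMSO, and DMSO at 12 months was the lowest library at 43.1% of the table's rows. Slopes in the fit below were negative at 76.5% of the table's fitted rows and at 63.3% of all common regions. The part of the choice of rows in the slopes was not tested. For the 13835 common regions, log2 scores were fitted with group and age in limma, and the slope is the change in log2 score per month, positive when the older libraries were higher. Of the 182 rows, 176 lay in such regions, 169 in number. At a Benjamini-Hochberg adjusted p under 0.05, 12 of the 169 were called, beside 10.6 percent of all common regions. Of these, 7 fell with age, beside 2.34 percent, and 5 rose, beside 8.22 percent. The rows of the whole table, chosen in the same way, lay in 8576 common regions, of which 298 fell and 190 rose. Of the 7 that fell, 5 were among the family's 102 promoter regions, beside 4.99 percent of promoter regions in the table, and 0 of the 5 that rose were, beside 0.0234 percent. The 5 that rose were all intergenic, out of 42 such regions of the family, beside 4.84 percent of intergenic regions, and 1 of the 42 fell, beside 2.19 percent.

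The rising region with the lowest adjusted p was upstream of psmb7 (chromosome 21, 8244047 to 8244346, -5055 bp from the start). It stood at 78.3, 86.2 and 97.0 in cortisol libraries at 10, 11 and 12 months and at 81.3, 95.5 and 98.6 in DMSO libraries. It rose in both groups, with a slope of 1.13 ± 0.12 (SE; limma, n = 6 libraries, adjusted p = 0.000712). The psmb7 promoter had a slope of -0.13 ± 0.16, which did not pass (limma adjusted p = 0.679).

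A region 116617 bp from the start of usp13 (chromosome 6, 29537211 to 29537415) stood at 32.1, 49.1 and 80.8 in cortisol libraries and at 35.0, 71.1 and 85.9 in DMSO libraries. Its slope of 1.29 ± 0.16 was the steepest of the family (limma adjusted p = 0.00113). These 2 regions kept their call in each of the 10 alternative fits, those leaving out each library in turn among them.

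Further rising regions lay -114590 bp from psma6b and 32921 bp from ube2v2, whose product is an inactive partner of a conjugating enzyme. The psma6b region was near the top in every library, at 94.6, 99.6 and 99.7 in cortisol and 99.2, 99.6 and 99.7 in DMSO, with a slope of 0.92 ± 0.20 (limma adjusted p = 0.0179). The ube2v2 region stood at 19.1, 26.4 and 71.4 in cortisol libraries and 25.4, 30.5 and 57.4 in DMSO libraries, with a slope of 1.01 ± 0.25 (limma adjusted p = 0.0304). Both of these calls were lost in at least 3 of the 10 alternative fits. The psma6b slope was 0.54 without the cortisol library at 10 months, and the ube2v2 slope 0.66 without the cortisol library at 12 months.

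Of the 7 regions that fell with age, 4 were near the starts of proteasome genes, out of 36 fitted regions within 1000 bp of such a start. In the whole table, 223 of 4741 fitted regions within 1000 bp of a start fell. The promoter of psmd7 (chromosome 7, 67093027 to 67093374, -66 bp), a lid gene whose product pairs with that of psmd14, stood at 69.3, 56.3 and 43.2 in cortisol libraries at 10, 11 and 12 months and at 74.0, 68.1 and 33.4 in DMSO libraries, with a slope of -0.80 ± 0.18 (limma adjusted p = 0.0193). The promoter of psma2 stood at 82.9, 64.1 and 47.7 in cortisol and 69.2, 73.7 and 40.9 in DMSO, with a slope of -0.81 ± 0.19 (limma adjusted p = 0.0232). The 5′ UTR region of psmc1a had a slope of -0.68 ± 0.18 (adjusted p = 0.04), and the promoter of psmd4a one of -0.36 ± 0.10 (adjusted p = 0.0496, limma).

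The remaining falling regions were the promoters of usp3, a deubiquitinase of histones in mammals, and ubald1a, and an intergenic region assigned to fbxl22, with slopes of -0.68 ± 0.18, -0.56 ± 0.15 and -0.60 ± 0.16 by limma. In all 7, both 12-month libraries stood below both 10-month libraries, which a downward call from these same libraries makes likely in advance. None of the downward calls was made without the cortisol or without the DMSO library at 12 months, and 18 were made without the DMSO library at 11 months, so their number rests on single libraries. The slopes of the 7 regions stayed negative, between -0.90 and -0.39 without the cortisol library at 12 months and between -0.70 and -0.38 without the DMSO library at 12 months. Over all 6 libraries they lay between -0.81 and -0.36. At psmc1a the slope was -0.43 without the DMSO library at 12 months.

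**Figure D4:**
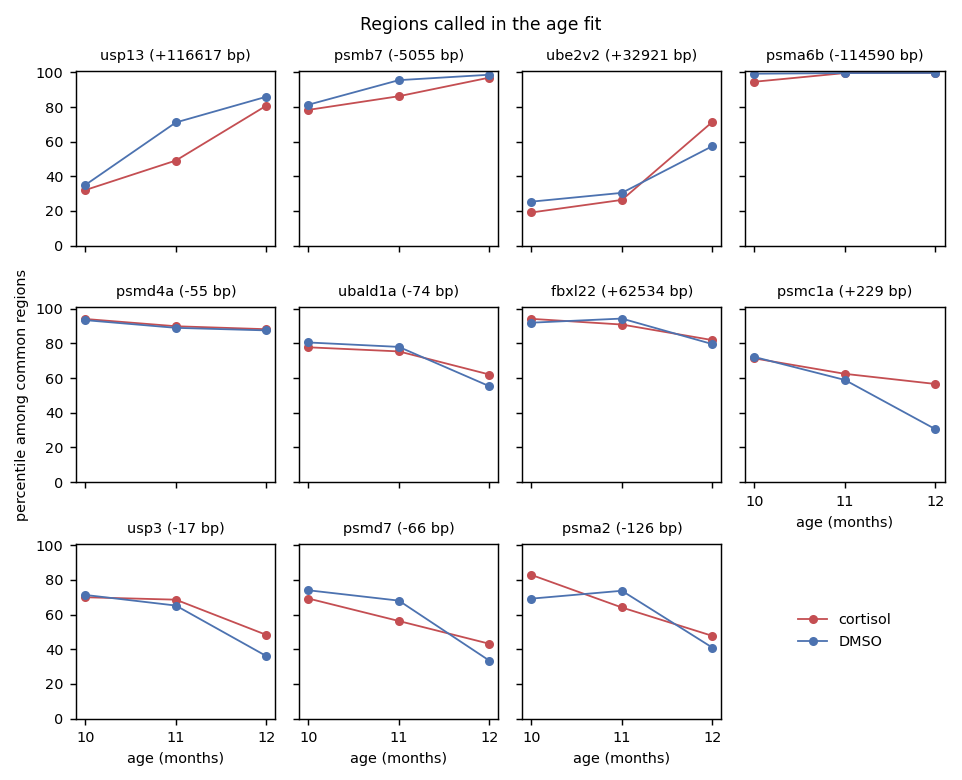
Percentile (vertical axis) against age in months (horizontal axis) for 11 of the 12 regions called in the age fit, titled by nearest gene and distance to its start, with cortisol in red and DMSO in blue and 1 library a point. The 4 intergenic regions at usp13, psmb7, ube2v2 and psma6b are higher at 12 than at 10 months in both groups, and the 7 others, the intergenic region at fbxl22 among them, are lower.

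Short of single calls, slopes at the family's promoters were mostly negative, as they were throughout the table. The median slope was -0.10 over all common regions, -0.19 over promoter regions of the table and -0.23 over the promoter rows of the family. Of the family's promoter rows, 92 of 102 had a negative slope (90.2%), beside 84.3% of promoter rows of the whole table. For proteasome promoters the median was -0.32, with 26 of 28 negative (92.9%). The median was -0.19 for ligase parts (25 of 28 negative, 89.3%) and -0.16 for conjugating enzymes (18 of 20, 90%). It was -0.16 for deubiquitinases (11 of 13, 84.6%). Among proteasome promoters, the median was -0.42 for 6 alpha genes, -0.44 for 5 ATPases and -0.52 for 8 psmd genes, all of them negative, and -0.24 for 8 beta genes, with 7 negative. The promoter of the activator psme4b had a slope of 0.23, which did not pass (limma adjusted p = 0.333). With scores centred on the library median and no quantile normalisation, the proteasome promoters had a median of -0.27 and all promoter rows -0.13, and leaving out each library in turn the proteasome median lay between -0.43 and -0.27. These medians are descriptions of lists chosen with results known.

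In percentiles, both 12-month libraries were below both 10-month libraries at 87 of the 182 rows (47.8%), beside 45.8 percent of the table, and at 17 of the 28 proteasome promoters (60.7%), beside 54.7 percent of promoter rows. They were above them at 12 of the 182 rows, beside 8.82 percent, and at 2 of the 103 promoter rows of the family, beside 4.1 percent. Median steps were downward in both groups, as they were in the whole table. At proteasome promoters the 12-month library was below the 10-month library at 20 of 28 in cortisol (71.4%), beside 76.4% of all promoter rows. In DMSO it was at 25 of 28 (89.3%), beside 81.9%. The median steps at proteasome promoters were -9.47 points in cortisol and -18.7 points in DMSO. At all promoter rows of the table the median steps were -4.14 points in cortisol and -7.11 points in DMSO. Whether the slope differed between the groups was tested by the interaction of age and group in limma. At an adjusted p under 0.05 it was called at 0 of the 13835 regions, and unadjusted p was under 0.05 at 496 of them, 3 of which held a member. With 1 library for each group and age, this fit could hardly call a difference. The 0 calls therefore do not show that the groups changed alike. The number of peaks in a list moved with age too, as given above, and its part in these slopes was not tested. Of the red cell markers, 24 rows entered the fit, with a median slope of -0.23. The 3 rows that fell with age were all at hbaa1 and lay in 2 regions, of 22 regions in all, beside 2.34 percent of all common regions. None rose, beside 8.22 percent. Among the 8576 regions of the whole table, 298 fell and 190 rose. Over all red cell marker rows, the median percentiles at 10, 11 and 12 months were 83.4, 81.2 and 80.5 in cortisol libraries. In DMSO libraries they were 80.6, 71.1 and 75.2. Among the few rows of the other lists, 0 myeloid, 1 lymphoid and 0 thrombocyte rows rose, and 0 fell. The part of cell makeup in the slopes was not tested either.

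**Figure D5:**
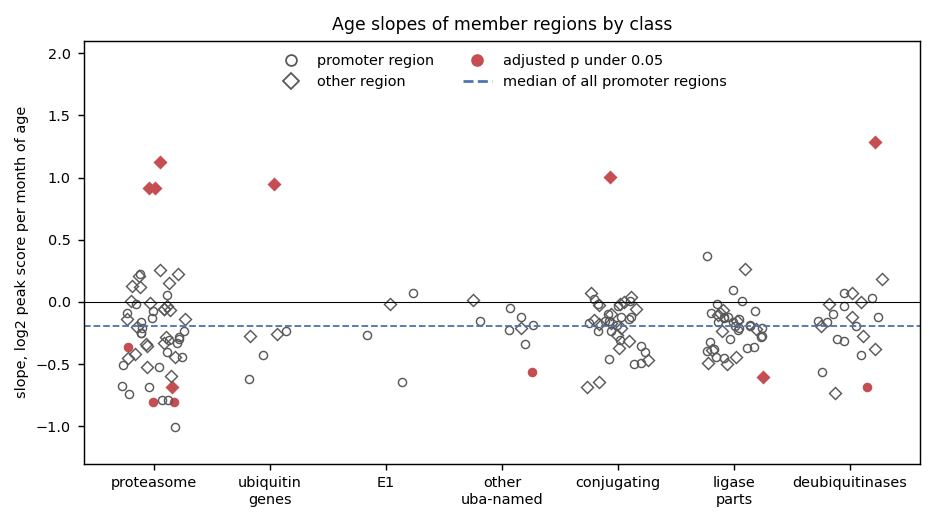
Slope of log2 peak score per month of age (vertical axis) for each member row by class, with circles for promoters, diamonds for other regions, filled symbols for adjusted p under 0.05 and a dashed line at the median of all promoter regions, -0.19. Most circles lie below 0, the lowest is the promoter of psmd13, and the filled symbols above 0 are all diamonds.

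Other genes of the pathway, from a list of 75 that carry none of these names, were read in the same way. Of the 75, 49 had a row, with 78 rows in all and 43 of them promoters, and their median mean percentile was 62.2. Strong promoters were those of vcp, the ATPase that pulls tagged proteins out of complexes, with a mean of 97.9, and of akirin2, which brings proteasomes into the nucleus in mammals, with 95.3. The promoter of pomp, the chaperone that matures the barrel, was lower, at 60.8, 60.2 and 42.5 in cortisol libraries at 10, 11 and 12 months and at 67.2, 59.7 and 11.3 in DMSO libraries. Like many proteasome promoters, and like 50.2% of all promoter rows of the table, it was lowest in DMSO at 12 months. The mean percentile was higher in cortisol at 60 of these rows (76.9%), beside 79 percent of all rows, and the groups did not overlap at 14 (17.9%), all upward, beside 9.54 percent. The 14 rows are not all separate. An intron and a promoter row of sumo3a are both among them, with equal values except in DMSO at 12 months. The intron row of nfe2l2a, also among them, had the value of its promoter row in cortisol at 11 months (90.2). In the age fit, 3 of 69 regions fell with age, at akirin2, nedd8 and itchb, beside 2.34 percent, and 0 rose, beside 8.22 percent. Among the 8576 regions of the whole table, 298 fell and 190 rose. The median slope of this list was -0.16.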

How the data were processed

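Blood ATAC-seq libraries of 3 cortisol and 3 DMSO samples were analysed, grouped by the sample labels. Per the labels and the study's methods, the authors used Trimmomatic 0.32 for trimming, kept 30 bp of each read, mapped to GRCz10 by bowtie 1.0.0, left out mitochondrial reads, handled alignments in SAMtools 0.1.18, called peaks with MACS2 2.1.1.20160309 at q of 0.001 with all duplicates kept, compared pooled groups and annotated regions with HOMER 4.8. FastQC 0.11.8 is also named. The deposited peak score equals -log10 q at the summit, multiplied by 10. It grows with depth and is not scaled between libraries, so it was used for ranks and, after quantile normalisation, for the age fit. Because all duplicates were kept, copies made in amplification add to the scores. The deposited coordinates and distances to starts of the annotated table were used. The table's comparison score, the pooled lists and the comparison lists hold the study's own contrast and were not used. Scaffold names differ in their suffix between the table and the lists and were matched.

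A peak was matched to a row at an overlap of at least 1 bp. Age slopes were fitted with limma 3.58.1 in R 4.3.3 (group plus age, trend, Benjamini-Hochberg over 13835 regions) after a test on simulated data. Other steps used Python 3.11.15, pandas 2.3.3, numpy 2.4.6, scipy 1.17.1 and matplotlib 3.10.9. Gene names were compared with RefSeq GRCz12tu by Entrez ID (134 of 134 member genes matched), and no coordinates were taken from it.

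Members, classes and gene lists were chosen with earlier results of these data known. All proteasome and activating enzyme genes were named, with ubb and ubc. In the other classes, taking the strongest row of each gene, the 4 highest and 2 lowest genes, the 3 largest and 2 smallest differences, genes without overlap and the 5 lowest adjusted p for age were named, and further genes were named after their values were seen. Some results under this rule are not reported here. Nothing in the labels says that the samples of a group are separate beyond calling them biological replicates. The alternatives were another percentile, overlap, promoters only, 1 row a gene, log2 scores, the replicate block, other forms of the age fit and leaving out libraries. Leaving out the 12-month pair, leaving out each library at single rows and taking promoter regions as background were chosen after seeing the data.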

Additional observations from a re-analysis of the deposited data

How the results depend on the processing

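Read depth was not at hand, so depth limits cannot be given, and 3 libraries a group leave most single regions undecided. The alternatives for the cortisol minus DMSO difference cover the family's rows only. Ranks within a library's own list gave a median of -1.22 points, 26.9% of rows higher in cortisol and 1.099% without overlap. Leaving out 1 library at a time, the median lay between 0.344 and 5.15 points, the share higher in cortisol between 53.8% and 80.8%, and the share without overlap between 12.1% and 30.8%, where fewer libraries make separation easier. With 1 row a gene the share without overlap was 5.97%, and without the 12-month pair it was 22.0%. With the replicate block the median was 3.02 points and 73.6% of rows were higher in at least 2 of 3 numbers. Deviations from group means correlated by 0.580, 0.0827 and 0.574 between libraries of the same number, and by -0.588 to 0.173 between others. Overlap of 50%, promoters only and log2 scores over the library median (0.175 log2 units) kept the direction. The promoter share of 56.6% became 69.8% when rows within 1000 bp of a start were counted.

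In the age fit, no group term left 4 calls at member regions, 2 lower and 2 higher. Leaving out 1 library at a time gave 2 to 23 calls, 0 to 18 lower and 2 to 5 higher with age. Median centring gave 12 calls, 12 against 10 months 15 and a score of at least 100 in every library 13. The calls at psmb7 and usp13 were kept in all 10 fits, the other 10 were lost in 3 to 7, and the cause was not tested.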

Other observations

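Some duplicated genes of the family differed in openness near the start within the same libraries, and others were close. The mean percentile over the 6 libraries was 90.4 at the promoter of psmd4a and 42.2 at that of psmd4b, and 83.6 at cul1b and 34.0 at cul1a. For the ube2d1 pair it was 24.6 at ube2d1a and 55.5 at ube2d1b, while for the ube2g1 pair it was 92.1 at ube2g1a, in an intron close to its start, and 87.0 at ube2g1b. The order within each of the first 3 pairs was the same in all 6 libraries. These pairs were chosen after their values were seen, and no test was made.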
